A study of Saccharomyces cerevisiae with 8 samples.

Results

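The results concern 8 yeast genes into which, per the labels, 81 bp had been inserted: CKB2, DGK1, PPT1, SLM3, TRP4, PAN5, UBX5 and BSP1. They were studied in cells treated with 1,10-phenanthroline. They were read in 4 of the 8 libraries of the series, the 4 from treated cells, and the 8 genes stand among 5348 genes with a measurable nucleosome array. The genes were taken from the labels, and the library in which each insertion sits was taken from a step of the insert length in the coordinates of the deposited calls. The steps are a measure of call positions, and both genes and libraries were chosen with earlier results of these data known. No score entered the choice. Each gene was compared nucleosome by nucleosome between 1 library and the other 3, and the nearest protein-coding gene on either side, 16 genes in all, was compared in the same way.

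The assay was MNase-seq, where micrococcal nuclease removes unprotected DNA and the fragments left on nucleosomes are sequenced in pairs. All 4 strains of Saccharomyces cerevisiae shared the background PPY1, MATa with his3Δ0, leu2Δ0, met15Δ0, ura3Δ0 and bar1::leu2, were grown in the rich medium YPD and were synchronised in G1. Treated cells received phenanthroline at 100 µg/ml for 30 min at 30 °C, and untreated cells of the same strains received none. Per the labels, strain 1 carried CKB2::81bp and DGK1::81bp, strain 2 PPT1::81bp and SLM3::81bp, strain 3 TRP4::81bp and PAN5::81bp, and strain 4 UBX5::81bp and BSP1::81bp. None of the strains analysed here is labelled as free of an insertion, so each gene was set against strains that carry the insertion in other genes. Each strain gave 1 library per treatment, and the labels name neither separate cultures nor clones. The p-values within a treatment thus measure only the spread between libraries of different strains. Fits over both treatments also take the libraries of a strain as independent.

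A nucleosome is DNA wrapped around a core of histones, and along a yeast gene nucleosomes stand in a regular array that starts at the first one of the gene, the +1. The array fades toward the 3′ end, where a second order set from the end of the gene can meet it. Where the distance from the +1 to the last nucleosome is close to a whole number of repeats, both orders fall in register and the gene is called phased. Otherwise it is called antiphased. An insertion shorter than a repeat can move a gene from one class to the other, and the series was designed to ask how such a change of gene length alters the array. Phenanthroline chelates metal ions and is used in yeast to block transcription, and passage of RNA polymerase is one of the processes that affect how nucleosomes are placed in genes.

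The inserted sequence is shown because it is the one difference in DNA between the strains at each gene, as the series gives it.
insert: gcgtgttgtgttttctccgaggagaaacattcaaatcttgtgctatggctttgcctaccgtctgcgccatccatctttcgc
It is 81 bp long, or 27 codons, with a GC content of 49.4%. As written it holds no stop codon in 3 of 3 reading frames, and on the reverse strand in 2 of 3. Its longest run of A or T is 4 bases.

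The sites lie inside the coding sequence of every gene (sacCer3, coding coordinates from RefSeq). CKB2 (YOR039W), the gene of a regulatory subunit of casein kinase 2, lies at chrXV:405768-406544 on the Watson strand with its site at position 406248, 61.8% of the way along the coding sequence. DGK1 (YOR311C), a diacylglycerol kinase that uses CTP, lies at chrXV:899056-899928 on the Crick strand with its site at 899667, at 29.9%. PPT1 (YGR123C), a protein phosphatase that acts on Hsp90, lies at chrVII:736662-738203 on the Crick strand with its site at 737615, at 38.1%. SLM3 (YDL033C), a mitochondrial enzyme that adds sulphur to tRNA, lies at chrIV:392659-393912 on the Crick strand with its site at 393462, at 35.9%. TRP4 (YDR354W), anthranilate phosphoribosyltransferase of tryptophan synthesis, lies at chrIV:1184747-1185889 on the Watson strand with its site at 1185196, at 39.3%. PAN5 (YHR063C), 2-dehydropantoate 2-reductase of pantothenate synthesis, lies at chrVIII:224030-225169 on the Crick strand with its site at 224581, at 51.6%. UBX5 (YDR330W), a UBX-domain protein that binds Cdc48, lies at chrIV:1127872-1129374 on the Watson strand with its site at 1128586, at 47.5%. BSP1 (YPR171W), a protein of cortical actin patches, lies at chrXVI:883828-885558 on the Watson strand with its site at 884578, at 43.3%.

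The labels and the coordinates named different libraries for every gene. Of 32 pairs of a treated library and a site, 8 held a coordinate step, of 78.5 to 83 bp, and the largest offset change in the remaining pairs was 4.5 bp. The step lay in the library labelled strain 2 for CKB2 and DGK1, strain 3 for PPT1 and SLM3, strain 4 for TRP4 and PAN5, and strain 1 for UBX5 and BSP1, and 0 of the 8 lay in the library whose label names the gene. Each comparison was therefore run once with the library that holds the step and once with the library labelled with the gene. In the second, the library with the step is 1 of the other 3. Positions below are given in bp from the site in the direction of transcription, negative toward the gene start, with 81 bp subtracted beyond each step unless they are said to lie inside the insert.

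The 4 treated libraries held 74442 to 75086 calls with a mean score of 0.642 to 0.648. The score runs from 0 to 1 and combines how narrow and how high the peak of fragments is, and the authors' class W marks well-positioned calls. Calls of the 4 libraries were joined into 72613 consensus nucleosomes, of which 64487 were called in all 4. Sequencing depth behind a library is unknown from the calls, and the labels give about the same number of read pairs for every sample. The library labelled strain 2 stood apart from the other 3 across the genome, which bears on CKB2 and DGK1. At a limma unadjusted p below 0.05 it differed in the mean score of 11.8% of 5306 genes, against 3.39%, 2.34% and 4.6% for the libraries labelled strains 1, 3 and 4. No gene passed an adjusted p below 0.05 in any of the 4 comparisons (0% of 21224 gene values), so with 1 library against 3 the values of each library and their order carry the description.

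The mean score from the +1 to the last nucleosome put the library with the step outside the range of the other 3 in 8 of 8 genes, in both directions, and the library labelled with the gene in 2 of 8 (DGK1 and PPT1). Over all genes a library lay outside that range in 47.7%, 58.4%, 45% and 48.9% of cases for the libraries labelled strains 1, 2, 3 and 4. The score of the library with the step lay below all of the others in CKB2, PPT1, SLM3, TRP4 and BSP1 and above all of the others in DGK1, PAN5 and UBX5. In SLM3 the margin was 0.731 against a lowest value of 0.733. For the library labelled with DGK1 it was only 0.73876 against a lowest value of 0.73879. At a limma unadjusted p below 0.05, 5 of the 8 genes differed in the library with the step (CKB2, DGK1, TRP4, PAN5 and UBX5) and 0 of the 8 in the library labelled with the gene. In the labelled comparison the library with the step is among the other 3, and a difference of that library widens their spread. The SE there was 0.0405 for CKB2 and 0.0507 for TRP4, against 0.0224 and 0.0248 with the library that holds the step. Which genes pass with the library that holds the step depends on how calls are joined and filtered. With calls assigned within 30 bp the count was again 5, with BSP1 in place of DGK1, with calls of score 0.4 or more it was 4, without UBX5, and over every call it was 5, with PPT1 in place of UBX5. Over every call 4.36%, 8.78%, 3.57% and 4.93% of all genes passed in the libraries labelled strains 1, 2, 3 and 4. At an adjusted p below 0.05 both counts were 0 of 8.

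**Figure D1:**
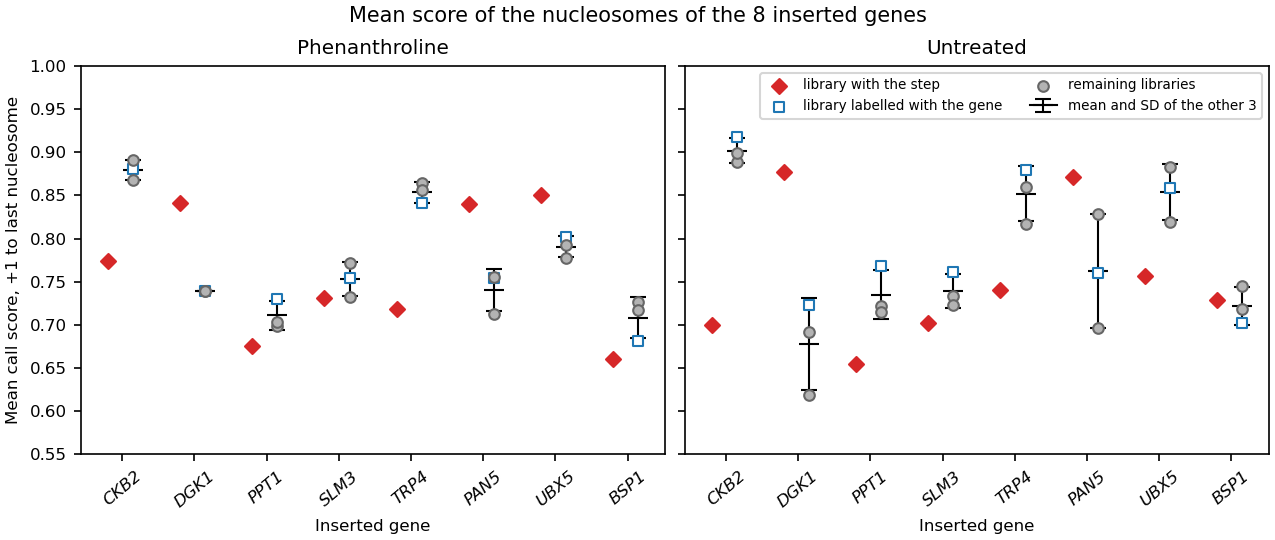
Mean deposited score of the nucleosomes from +1 to last in each inserted gene (vertical axis, 0.55 to 1) in treated (left) and untreated (right) libraries. Red diamonds are the library with the coordinate step, open blue squares the library labelled with the gene, grey circles the remaining 2, and black bars the mean and SD of the 3 libraries without the step. CKB2 and TRP4 lie below and DGK1 and PAN5 above the others in both panels, and UBX5 lies above in treated and below in untreated cells.

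CKB2 was among the genes with a lower score where the step lies. Its mean score was 0.774 in the library with the step (labelled strain 2), against 0.880, 0.891 and 0.867 in the libraries labelled strains 1, 3 and 4 (mean 0.880 ± 0.0117, SD, n = 3). The difference of -0.11 (SE 0.0224) had a limma p of 0.000951 and an adjusted p of 0.159, and ranked 42 of 5306 genes by size in that library. The library labelled strain 1, which names CKB2, differed from its other 3 by 0.036 (limma adjusted p = 0.998).

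The lower scores of CKB2 lay at the 2 nucleosomes upstream of the site. At +3, centred at -248 bp, the score was 0.656 in the library with the step, against 0.879, 0.883 and 0.838 in the other 3. At +4, at -88 bp, it was 0.528, against 0.912, 0.870 and 0.839, and this call was 205 bp wide while the calls of the other 3 spanned 147 bp. The library with the step held a further call of score 0.467 centred 10 bp inside the insert. The +1 and +2 scored 0.913 and 0.896 there, and the other libraries scored 0.901 to 0.918 and 0.896 to 0.909 at the same places. The last nucleosome, at 220 bp, scored 0.874 against 0.893 to 0.913. Well-positioned calls numbered 5 of 7 in the library with the step and 6 of 6 in each of the others.

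TRP4 also scored lower where the step lies, in part through how calls were joined, as the calls around its site show. Its mean score was 0.718 in the library with the step (labelled strain 4), against 0.864, 0.856 and 0.841 in the libraries labelled strains 1, 2 and 3 (mean 0.854 ± 0.0119, SD, n = 3). The difference of -0.14 (SE 0.0248) had a limma p of 0.000348 and an adjusted p of 0.695, and ranked 3 of 5306 genes by size. It was -0.075 with calls of score 0.4 or more and -0.083 with calls assigned within 30 bp, where CKB2 had -0.11 under both, and it passed the unadjusted threshold in each case. The library labelled strain 3, which names TRP4, differed by 0.028 (limma adjusted p = 1.0).

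Around the TRP4 site the other 3 libraries held well-positioned calls at -20 to -10 bp with scores of 0.841 to 0.884 and at 152 to 162 bp with scores of 0.818 to 0.840. The library labelled strain 2 held a further call of score 0.155 at -98 bp, and its spacing SD over the gene was 41.2 bp, against 29.3 bp in the library with the step. The library with the step held 3 calls of low score around the site, at -65 bp (0.425, 209 bp wide), at 9 bp (0.472) and at 118 bp (0.328). None of the 3 was classed as well positioned, and no dyad lay inside the insert. A well-positioned call of score 0.817 followed at 195 bp. The call at 118 bp lay nearer the consensus nucleosome of the calls at 152 to 162 bp. It therefore entered the mean score in place of the call at 195 bp. The +6 nucleosome lay 33 bp farther downstream, at 343 bp, against 308 to 312 bp in the other 3. The +7 and +8, at 491 and 644 bp, differed in score from the mean of the other 3 by -0.021 and -0.014. Toward the gene start the +1 and +2 scored 0.912 and 0.852, against 0.835 to 0.914 and 0.853 to 0.867.

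**Figure D2:**
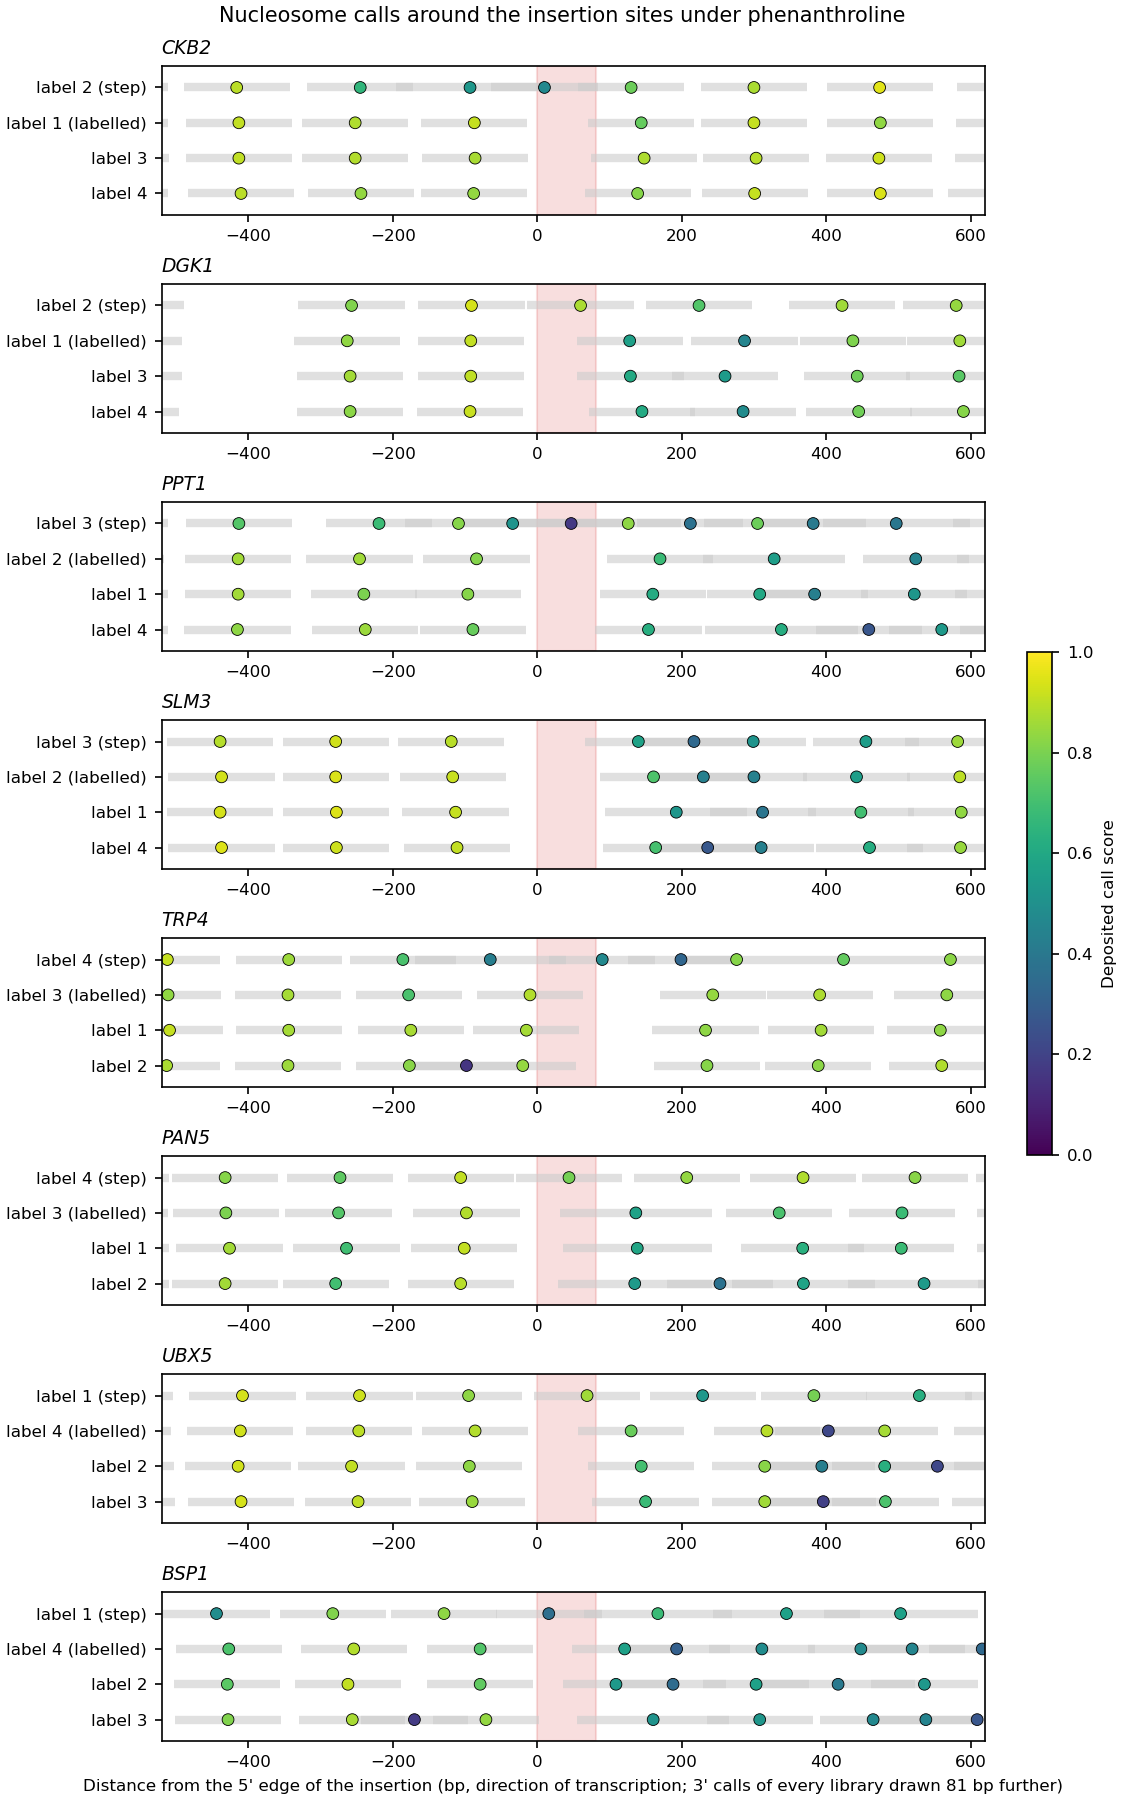
Calls around the site of each inserted gene in the 4 treated libraries, with the distance from the 5′ edge of the insertion in bp along the horizontal axis and the library with the step in the top row of each panel. Points are call centres coloured by score, grey bars their span, and the red band the 81 bp insert, which is empty space in the other 3 rows. In DGK1, PAN5 and UBX5 a call of score 0.792 to 0.873 is centred in the insert, in CKB2, PPT1 and BSP1 one of 0.168 to 0.467, and in SLM3 and TRP4 none.

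DGK1 differed in the other direction. Its mean score was 0.841 in the library with the step (labelled strain 2), against 0.739 in each of the other 3 (SD 0.000283, n = 3). Single nucleosomes of these 3 differed more than their means, with 0.456, 0.546 and 0.484 at the +4. The difference of 0.10 (SE 0.0215) had a limma p of 0.000934 and an adjusted p of 0.159, and ranked 57 of 5306 genes by size. With calls assigned within 30 bp it was 0.024 and did not pass the unadjusted threshold (limma adjusted p = 0.749). The library labelled strain 1, which also names DGK1, differed by -0.034 (limma adjusted p = 0.998).

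In DGK1 a well-positioned call of score 0.873 was centred 60 bp inside the insert, and the next one, at 143 bp, scored 0.730. The other 3 libraries held calls of 0.565, 0.605 and 0.608 at 47 to 64 bp and of 0.456, 0.546 and 0.484 at 179 to 206 bp in their place. The call inside the insert was placed at the site and joined to the consensus nucleosome at 52 bp. It thus entered the mean score, set against calls on DNA without the insert. The calls inside the insert of PAN5 and UBX5 entered their mean scores in the same way. Of the calls within 250 bp of the site, 3 of 3 were well positioned in the library with the step and 2 of 3 in each of the others. The nucleosome upstream of the site, at -91 bp, scored 0.935 against 0.906 to 0.915. Neighbouring dyads of the gene were 151 to 198 bp apart with the insert included and a median of 164 bp, against medians of 141 to 157 bp in the other 3.

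PAN5 likewise scored higher where the step lies, with 0.840 in the library labelled strain 4, against 0.756, 0.713 and 0.754 in those labelled strains 1, 2 and 3 (mean 0.741 ± 0.0244, SD, n = 3). The difference of 0.10 (SE 0.0273) had a limma p of 0.00499 and an adjusted p of 0.845, and ranked 40 of 5306 genes by size. For the library labelled strain 3, which names PAN5, it was -0.016 (limma adjusted p = 1.0). All 8 calls of PAN5 were well positioned in the library with the step, against 4 calls in each of the other 3. Their spacing varied less, with an SD of 6.30 bp between neighbouring dyads, against 17.9 to 31.6 bp. A call of score 0.792 was centred 44 bp inside the insert and was followed by calls of 0.837 at 126 bp and 0.882 at 287 bp. In the other 3 libraries the first call beyond the site was 206 to 213 bp wide and scored 0.542 to 0.587.

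UBX5 scored 0.851 in the library with the step (labelled strain 1), against 0.793, 0.777 and 0.802 in those labelled strains 2, 3 and 4 (mean 0.791 ± 0.0123, SD, n = 3). The difference of 0.060 (SE 0.0258) had a limma p of 0.0420 and an adjusted p of 0.998. It was 0.0094 with calls of score 0.4 or more, and it did not pass the unadjusted threshold then, nor without the library labelled strain 3 or 4 (0.053 and 0.065). With calls assigned within 30 bp the difference was 0.071, and without the library labelled strain 2 it was 0.061. This difference rests on how calls were joined. The other 3 libraries held well-positioned calls of 0.823 to 0.892 at 234 to 237 bp, too near the consensus nucleosome at 313 bp to form one of their own, and at 313 bp itself they held calls of only 0.423, 0.193 and 0.217. Over every call of the gene the score was 0.822, against 0.747 to 0.810, a difference of 0.041 that did not pass the unadjusted threshold (limma adjusted p = 0.998). In the library with the step a call of 0.856 was centred 69 bp inside the insert, and the calls at 148 and 302 bp scored 0.532 and 0.792. Its spacing had an SD of 10.3 bp, against 34.2 to 40.9 bp in the other 3, where the calls of low score near 313 bp enter the SD. In untreated cells the order was the reverse, with 40.4 bp against 5.72 to 8.17 bp. In treated cells the +8 and +9 lay 47.7 and 16 bp farther downstream than the mean of the other 3, at 448 and 584 bp. The +1 to +4 dyads differed by -1 to 4.67 bp.

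PPT1, BSP1 and SLM3 did not pass an unadjusted p below 0.05 in the mean score over consensus nucleosomes. PPT1 had 0.676 in the library with the step (labelled strain 3), against 0.699, 0.730 and 0.704 in those labelled strains 1, 2 and 4 (difference -0.035, limma adjusted p = 1.0). It held more calls there, 15 against 10 to 11, with a median spacing of 101.5 bp against 152.5 to 168 bp, and calls overlapped on both sides of the site. Over every call its mean score was 0.580, against 0.664 to 0.730 (difference -0.11, limma adjusted p = 1.0), and this passed the unadjusted threshold. The call centred 47 bp inside the insert scored 0.168, and the one just beyond, at 45 bp, scored 0.830 against 0.610 to 0.677 in the other 3. At +9, far downstream at 761 bp, the score was 0.407, against 0.624 to 0.630.

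BSP1, the longest array, had 0.660 in the library with the step (labelled strain 1), against 0.726, 0.717 and 0.681 in those labelled strains 2, 3 and 4 (difference -0.048, limma adjusted p = 0.998). With calls assigned within 30 bp the difference was -0.070 and passed the unadjusted threshold. Its dyads differed on both sides of the site. The +3, +4 and +5 lay at -444, -283 and -129 bp, each nearer the gene start than the -429 to -427, -262 to -254 and -79 to -71 bp of the other 3. On the 3′ side the +7 lay 37.7 bp nearer the gene end than the mean of the other 3, and the +10 and +11 lay 9.67 and 21.7 bp nearer the gene start. Its +1 scored 0.507, against 0.915, 0.811 and 0.798, although it lies 744 bp from the site. The call centred 16 bp inside the insert scored 0.361.

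SLM3 showed the least. Its mean score was 0.731 in the library with the step (labelled strain 3), against 0.772, 0.754 and 0.733 in those labelled strains 1, 2 and 4 (difference -0.022, limma adjusted p = 1.0). The nucleosomes on either side of the insert left it mostly free, since 14 of its 81 bp lay under a call, against all 81 bp in the other 7 genes. The distance between the dyads across the site was 259 bp with the insert included, against 224.5, 197 and 194 bp in the other 3, which lack it. The last call before the site lay at -119 bp with a score of 0.891, against -117 to -111 bp with 0.908 to 0.915.

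The nucleosomes outside the masked 150 bp around the sites were then counted over all 8 genes. In the library with the step, 12 of 51 scores (23.5%) and 14 of 51 dyads (27.5%) differed at a limma unadjusted p below 0.05. In the library labelled with the gene, 2 of 51 scores and 1 of 51 dyads did. Across all consensus nucleosomes the share was 5.47%, 9.42%, 4.51% and 5.76% for scores and 5.76%, 10.3%, 5.05% and 5.99% for dyads in the libraries labelled strains 1, 2, 3 and 4. The share in the library with the step was thus above that of each library as a whole, while the share in the labelled library was below it. In the labelled comparison the library with the step is 1 of the other 3. A difference of that library widens their spread and lowers the count by design, so the counts of the 2 comparisons are not alike. Call positions also chose the library with the step, so its dyad count is a description and no test of the insertion. None of the 51 passed an adjusted p below 0.05 in any of these counts, and neither did any of the 257948 values across the genome (0%). Without the library labelled strain 1, which takes UBX5 and BSP1 out of the comparison, the dyad count for the library with the step was 4, against 7 over the same 6 genes with it. The median size of the score difference was 0.048 in the library with the step and 0.0198 in the labelled one, beside 0.0405 to 0.0459 over all nucleosomes. The median dyad difference was 5 bp and 3.67 bp, beside 4 to 5 bp over all nucleosomes.

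Dyad differences were larger beyond the sites than before them, while scores passed the unadjusted threshold at like shares on both sides. In the library with the step 10 of 28 dyads and 7 of 28 scores passed on the 3′ side, and 4 of 23 dyads and 5 of 23 scores on the 5′ side. Within 150 to 300 bp beyond the site the median dyad difference in the library with the step was 19.7 bp (7 nucleosomes), and at 300 to 450 bp it was 23.8 bp (8 nucleosomes). At the same distances on the 5′ side it was 4.5 bp (8 nucleosomes) and 2.33 bp (7 nucleosomes). Beyond 450 bp it was 9.33 bp on the 3′ side and 1 bp on the 5′ side. In the library labelled with the gene the 3′ medians were 11, 11.5 and 3.67 bp and the 5′ medians 4, 0.667 and 1.17 bp. The sides thus differed in that library too, and the contrast between sides was not tested. Since call positions chose the library with the step, its dyad values by side are a description as well. The score differences on the 3′ side had medians of 0.183, 0.102 and 0.037 at the 3 distances in the library with the step, against 0.070, 0.061 and 0.017 in the library labelled with the gene. On the 5′ side they were 0.061, 0.024 and 0.016, against 0.0195, 0.0099 and 0.0156.

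**Figure D3:**
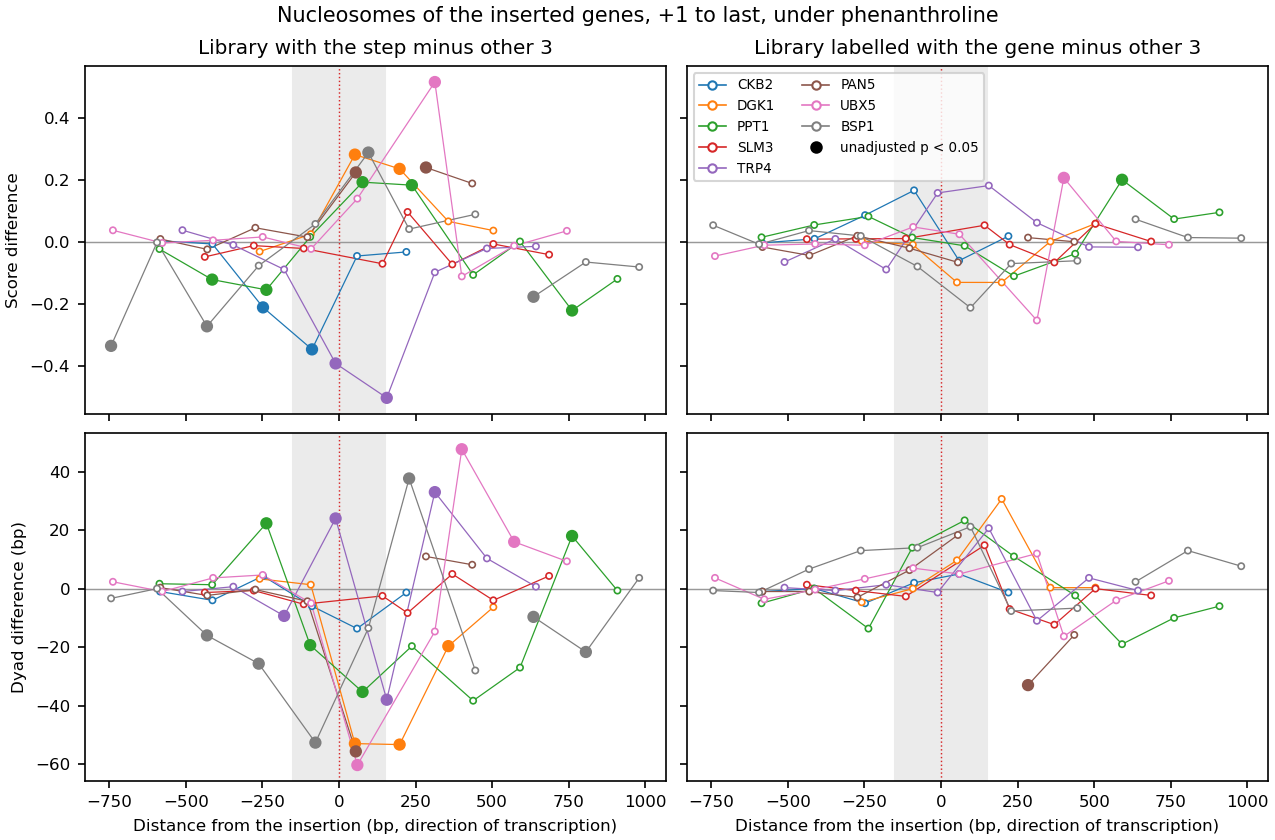
Difference of 1 treated library from the mean of the other 3 for every nucleosome of the inserted genes, by distance from the insertion in bp. The left column takes the library with the step, the right column the library labelled with the gene, the upper row the score and the lower row the dyad in bp (positive toward the 3′ end). Filled points have an unadjusted limma p below 0.05, and the grey band marks the nucleosomes within 150 bp that were left out of counts. Calls inside the insert are placed at 0. Outside the band, differences in the left column run from -0.50 to 0.51 in score and from -53.3 to 47.7 bp, and those in score are small at the left ends of the arrays apart from BSP1. The extremes in score, -0.50 in TRP4 and 0.51 in UBX5, rest on how calls were joined.

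The start of the arrays, which lies before the sites, stood close to its place in the other libraries, with a +1 dyad that differed from the mean of the other 3 by -3.33 to 3.33 bp over the 8 genes. The last dyad differed by -6.33 to 9.33 bp once 81 bp had been subtracted. An offset of this length beyond the site is what chose the library, so the place of the last dyad and the length of the array are a description and no test of the insertion. The distance from the +1 to the last nucleosome differed by -9.67 bp (DGK1) to 7.83 bp (PAN5) with the insert subtracted, and 0 of 8 genes passed a limma unadjusted p below 0.05. CKB2, for instance, measured 804 bp against 804 to 805 bp, TRP4 1156 bp against 1152 to 1157 bp, and PPT1 1493 bp against 1494 to 1497 bp. With the insert included these 3 arrays were 885, 1237 and 1574 bp long. In the library labelled with the gene the distance differed by -14.8 bp (PAN5) to 8.33 bp (BSP1), again with 0 of 8 at that threshold. Over all genes 7.42%, 7.46%, 5.31% and 6.88% passed it in the libraries labelled strains 1, 2, 3 and 4.

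With a repeat set 5 bp above 160 bp and a margin of 41 bp, adding the insert to the array length of the other 3 libraries changed the class of all 8 genes. CKB2, PPT1, SLM3, TRP4, PAN5 and UBX5 became antiphased, and DGK1 and BSP1 phased. Beside these classes, the mean score in the library with the step was lower in 4 of the 6 genes that became antiphased (CKB2, PPT1, SLM3 and TRP4) and higher in PAN5 and UBX5. Of the genes that became phased it was higher in DGK1 and lower in BSP1. With a repeat of 160 bp the classes were other ones for 5 genes. PAN5 and PPT1 became phased, DGK1 and BSP1 antiphased, and UBX5 stayed phased, so a direction by class rests on the repeat length.

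Agreement between libraries on where calls lie gave another view that does not match calls through the consensus positions. Call positions also chose the library with the step, so this view is a description and no test of the insertion. In TRP4, 58.3% of calls in the library with the step and the others matched within 20 bp, against 96.1% among the other 3, a difference of rank 8 from the lowest of 5348 genes. In PPT1 the shares were 44.0% against 78.2% (rank 9) and in BSP1 45.0% against 82.9% (rank 13). DGK1 had 55.6% against 88.9% (rank 43), UBX5 71.7% against 97.1% (rank 65). The other 3 genes ranked far from the lowest, PAN5 with 73.9% against 77.5% (rank 1130), CKB2 with 92.3% against 100% (rank 1352) and SLM3 with 86.7% against 88.2% (rank 1411). For the library labelled with the gene the share was above that among its other 3, which include the library with the step, in 7 genes. In PAN5 it was below, with 73.0% against 78.3% (rank 861). The median difference over all genes was 0. Calls inside the insert were placed at the site for this count. They lie on DNA that the other libraries lack, which can lower the share of the library with the step by design. Nearly all of the genes behind the ranks hold no insert.

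No consensus nucleosome of the 8 genes that the other 3 libraries all held was missing from the library with the step (0 of 66), and 1 in UBX5 was found there alone. Over the genome 1.48%, 1.94%, 1.42% and 1.26% of such nucleosomes were missing from the libraries labelled strains 1, 2, 3 and 4. The map pools all 4 libraries, so the places it gives are blends of theirs, as the calls at 234 to 237 bp in UBX5 show.

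The genes on either side showed no such difference. Of 16 neighbours, 0 differed in mean score at a limma unadjusted p below 0.05 in the library with the step, with differences of -0.055 (TRR1, thioredoxin reductase, upstream of TRP4) to 0.050 (GLO4, a mitochondrial glyoxalase, downstream of CKB2). In the library labelled with the gene 1 did, YPR170W-B beside BSP1, with 0.722 against a mean of 0.789 in the other 3 (difference -0.067, limma adjusted p = 1.0). Of 160 nucleosomes of the neighbours, 9 scores (5.63%) and 8 dyads (5%) differed in the library with the step, and 11 of each (6.88%) in the library labelled with the gene. These shares lie close to or within those of the whole genome. At the same unadjusted threshold the distance from the +1 to the last nucleosome differed in 1 neighbour, SSZ1 (a ribosome-associated chaperone) upstream of PAN5, with 1488 bp against 1517 bp (difference -29.3 bp, limma adjusted p = 0.660). Dyads of the neighbours differed by a median of 3.67 bp on the 5′ side and 7.33 bp on the 3′ side in the library with the step, beside 3.67 and 6.33 bp in the library labelled with the gene, with 81 bp subtracted from those beyond a step.

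**Figure D4:**
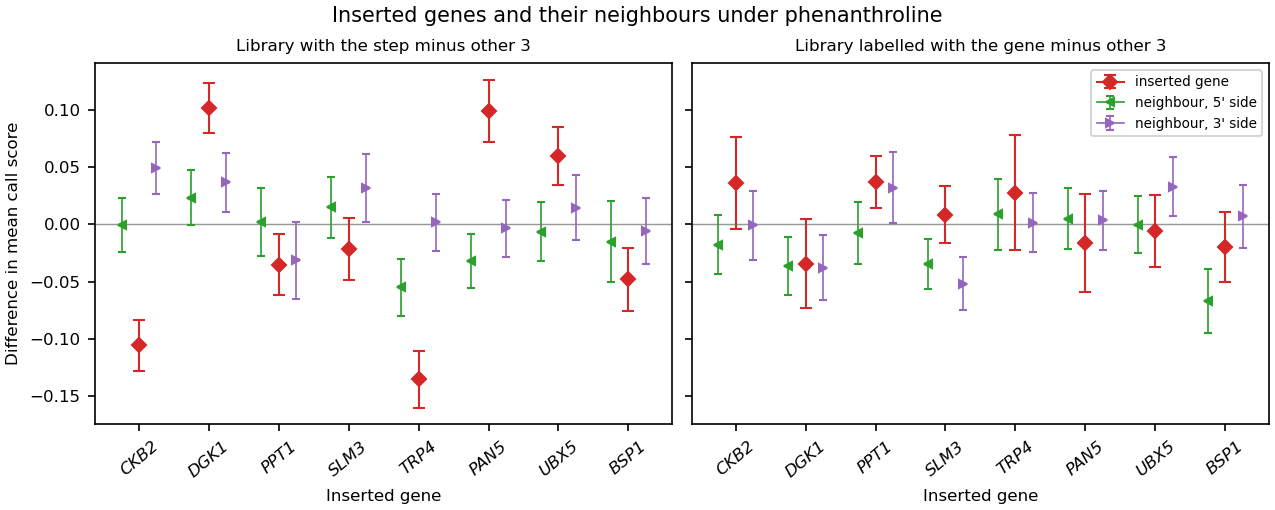
Difference in mean score of 1 treated library from the other 3 (vertical axis) with its SE, for each inserted gene (red diamonds) and its neighbours on the 5′ (green) and 3′ (purple) side. The left panel takes the library with the step and the right panel the library labelled with the gene. In the left panel CKB2 and TRP4 lie below and DGK1 and PAN5 above their neighbours, which lie between -0.055 and 0.050.

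The untreated libraries were read with the steps placed in the same strain labels and gave values that the treated comparison had not used. Their calls were joined through the map of the treated libraries. In untreated DGK1 a call of score 0.894 inside the insert again entered the mean score. The untreated difference of DGK1 is therefore not free of how calls were joined. In untreated cells the difference of the library with the step from the other 3 was -0.20 for CKB2, -0.11 for TRP4, 0.20 for DGK1 and 0.11 for PAN5, the directions seen under phenanthroline. For UBX5 it was 0.060 in treated and -0.097 in untreated cells, and for BSP1 -0.048 in treated and 0.0070 in untreated cells. The test of the difference between treatments gave 0.16 for UBX5 (limma adjusted p = 1.0) and 0.096 for CKB2 (limma adjusted p = 0.535). 0 of 8 genes passed an adjusted p below 0.05 there, as did 0% of all genes for each of the 4 strain labels, while UBX5 and CKB2 passed at an unadjusted p below 0.05 (2 of 8). At that threshold 1.27%, 8.02%, 4.69% and 2.05% of all genes passed for strain labels 1, 2, 3 and 4. With all 8 libraries in 1 fit, 2 against 6 with the treatment as a covariate, CKB2 (difference -0.15, limma adjusted p = 0.00871) and DGK1 (0.15, limma adjusted p = 0.0225) passed. Both rest on the libraries labelled strain 2, in which 2.72% of genes passed in this fit, against 0% for strains 1 and 4 and 0.076% for strain 3. The fit took the treated and the untreated library of a strain as independent, and so did the test of the difference between treatments. Both libraries come from 1 strain, so the adjusted p-values of the fit can be too small. It was run only with calls assigned within 60 bp. Within 30 bp the treated difference of DGK1 was 0.024. CKB2 ranked 2 and DGK1 5 of 5263 genes by size in the fit of all 8 libraries. TRP4 ranked 3 and PAN5 4 in the libraries labelled strain 4, with adjusted p of 0.333 and 1.0. In the libraries labelled with the gene 0 of 8 passed. Among single nucleosomes of the 8 genes 1 of 50 scores and 1 of 50 dyads passed in this fit with the libraries that hold the step. The shares of all values were 0.161% and 0.306%, pooled over the 4 strain labels. The score was that of the +3 of CKB2, in the libraries labelled strain 2, whose own share is not given.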

How the data were processed

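The deposited files hold nucleosome calls made by the authors with nucleR, 1 file per library, per the file headers and columns. Per the labels, digestion was tuned for each sample. The build is sacCer3, per the submitters' processing notes, and no source used here gives the aligner, the filters or the nucleR version. The deposited score is the mean of a width and a height score within a library. Start and end coordinates (positions, a unit of no other kind) were deposited by the authors in bp, and their midpoint served as the dyad.

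The members and lists were chosen with earlier results of these data known. Named are the 8 inserted genes and the nearest protein-coding gene on each side (RefSeq R64 table). Beyond each step 81 bp were subtracted, and calls inside an insert were placed at the site. Dyads of the 4 treated libraries were pooled (Gaussian SD 20 bp, maxima at least 80 bp apart), calls were assigned within 60 bp, and nucleosomes called in at least 2 libraries formed arrays. The +1 was the downstream member of the widest gap from 150 bp before to 200 bp after the coding start, and a gene needed at least 3 nucleosomes. limma 3.58.1 in R 4.3.3 compared 1 library with 3 over all nucleosomes or genes with Benjamini-Hochberg adjustment at 0.05. The single library is assumed to vary like the other 3, and an exact permutation of 4 libraries cannot go below p = 0.25. The fit was tested on simulated data. Python 3.11.15, numpy 2.4.6, pandas 2.3.3 and matplotlib 3.10.9 did the rest. Alternatives are named in the closing section. The counts at an unadjusted p or outside the range of the other 3, the mean over every call, the difference between treatments, the counts by side of the site, the matching of calls within 20 bp and the window of 250 bp around sites were added after seeing the data. Depth per library is unknown, so no counting interval is given.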

Additional observations from a re-analysis of the deposited data

Results flagged for a closer look

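Of 16 groups of 4 treated libraries (mean score and distance from the +1 to the last nucleosome in 8 genes), 3 held a library farther from the rest than Dixon's 95% limit allows for 4 values. Chance flags about 1 in 20 groups. The mean score of DGK1 was 0.841 in the library labelled strain 2, which holds the step, against 0.739 in each of the others. This flag rests on means that nearly coincide, though single nucleosomes of those libraries differed more. With calls assigned within 30 bp the difference was 0.024. The mean score of TRP4 was 0.718 in the library labelled strain 4, which holds the step, against 0.841 to 0.864. The third was the distance in CKB2, 805 bp in the library labelled strain 3, against 804 bp in the other 3, a gap of a single base pair in a library without the step.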

How the results depend on the processing

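No paired analysis was possible because the strain number, the only number the groups share, is what is compared. That reason covers the comparisons between strains. The difference between treatments was tested without matching the libraries of a strain, and a matched version of that test was not run. Of the counts recomputed under other settings, 130 stayed within 1.5 times the main count and 15 did not. Many of the 130 set 0 against 0, among them the counts at an adjusted p with 4 libraries. The 130 are therefore no measure of how stable the results are. With all 8 libraries and the treatment as a covariate, in the library with the step 1 score, 1 dyad and 2 gene scores passed an adjusted p (0 in each case with 4 libraries), and at an unadjusted p 22 of 50 scores and 1 distance did. In the labelled library 1 score and 1 gene score did at an unadjusted p. UBX5 reversed there, to -0.018. That fit takes both libraries of a strain as independent. Labelled-library scores at an unadjusted p numbered 1 with calls assigned within 30 bp, 1 with the width score alone and 5 with the height score alone, against 2. Without single libraries, counts at an unadjusted p in the library with the step ran from 7 to 9 for scores, 4 to 14 for dyads, 2 to 4 for gene scores and 0 to 1 for distances, and in the labelled library from 1 to 2 for scores and 1 to 3 for dyads. Counts at an adjusted p were 0 in each of these. A gene whose own library was left out drops from these counts. Calls of score 0.4 or more, a variance trend with a robust prior, centred scores and the nucleosomes within 150 bp kept in moved no count past 1.5 times, though single genes moved as given for DGK1, TRP4, UBX5, PPT1 and BSP1. With a repeat of 160 bp the phase class changed in 7 genes, against 8. The cause of these moves was not tested. Depth per library is unknown, and with 1 library of each strain a difference of a strain cannot be told apart from a difference of its library.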
